A study of Mus musculus with 4 samples.

Results

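The colony-stimulating factors (CSFs) and their receptors were described in cells recovered by bronchoalveolar lavage from bleomycin-administered mice. The 9 genes were Csf1, Il34 and Csf1r, Csf2, Csf2ra, Csf2rb and Csf2rb2, and Csf3 and Csf3r, chosen by name as one cytokine family, among 20832 genes that could be named on the array. They were represented by 15 of the 39429 probes of a whole mouse genome array, found by the RefSeq accession that the scanner files give for each probe. There were 4 one-color arrays, 2 for wild-type mice and 2 for S1pr2-/- mice. The wild-type mice were littermates of mice carrying a targeted disruption of S1pr2, which encodes a receptor for sphingosine-1-phosphate, and the mixed-background line had been backcrossed to C57BL/6J. The disruption was not limited to macrophages. All mice were young adults, and all had received intraperitoneal bleomycin at 0.035 U/g in 2 injections per week, with lavage cells taken on day 22. No array of saline-administered mice was analysed here, so bleomycin itself was not compared.

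CSF-1 (also called M-CSF) and IL-34 are the ligands of the CSF-1 receptor, a tyrosine kinase on which macrophages depend for survival and proliferation. GM-CSF, encoded by Csf2, binds a ligand-specific alpha chain (Csf2ra) that pairs with the common beta chain (Csf2rb), which IL-3 and IL-5 receptors share, and it signals through JAK2 and STAT5. In the lung, GM-CSF is needed for the maturation of alveolar macrophages. Mice carry a second, closely related beta chain gene, Csf2rb2, which works with the IL-3 receptor and lies next to Csf2rb in the RefSeq annotation. G-CSF, encoded by Csf3, and its receptor Csf3r drive the production of neutrophils.

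The promoters of Csf1, Csf2 and Csf2rb2 are shown, since Csf1 had the largest difference among these genes, Csf2 is a ligand whose values overlapped, and Csf2rb2 is the other gene with a motif match. Each is the run of 250 bases just before the annotated start, from RefSeq on GRCm38.p6, read 5′ to 3′ on the strand of the gene, and such windows were read for 5 of the 9 genes (Csf1, Csf2, Csf2ra, Csf2rb2 and Csf3r). Capitals mark matches to the motifs searched on both strands, which were GGGACTTTC (a core of the site) for NF-kB, TTCNNNGAA for STAT5 and GAGGAAGT for PU.1. These motifs were chosen after the sequences had been read.
Csf1, chr3:107760470-107760719, minus strand: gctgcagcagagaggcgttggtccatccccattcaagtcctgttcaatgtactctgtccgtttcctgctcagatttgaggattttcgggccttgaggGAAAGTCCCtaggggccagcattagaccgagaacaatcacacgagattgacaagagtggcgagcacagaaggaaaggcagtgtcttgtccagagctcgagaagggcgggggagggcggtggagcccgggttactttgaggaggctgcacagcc
Csf2, chr11:54249900-54250149, minus strand: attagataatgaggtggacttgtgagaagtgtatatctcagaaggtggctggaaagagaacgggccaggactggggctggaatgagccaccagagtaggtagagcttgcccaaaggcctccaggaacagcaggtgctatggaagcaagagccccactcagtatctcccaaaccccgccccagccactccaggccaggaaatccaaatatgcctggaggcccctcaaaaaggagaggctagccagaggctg
Csf2rb2, chr15:78305722-78305971, minus strand: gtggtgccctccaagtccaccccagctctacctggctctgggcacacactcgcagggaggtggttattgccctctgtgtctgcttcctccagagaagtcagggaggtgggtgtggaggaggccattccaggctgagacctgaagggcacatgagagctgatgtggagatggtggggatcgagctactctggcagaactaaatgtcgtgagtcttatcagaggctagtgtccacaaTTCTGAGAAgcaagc
The Csf1 window held the NF-kB letters in reverse orientation, with the first base 153 bases before the start. Of 32851 promoter windows of the same length, 0.289% held these letters on either strand, 7.02% held those of STAT5 and 2.44% those of PU.1. The Csf2rb2 window held the STAT5 letters, and the Csf2 window held none of the motifs searched. A match of letters is a description of the reference sequence and no measurement of binding in these cells.

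On each array, the processed signal of a probe was divided by the 75th percentile of the array (between 2489.0 and 2817.2 intensity units) and log2 was taken, with values under 0.01 of the percentile set to that floor. This quantity is called the relative signal below, and a value of 0 is the 75th percentile of the array. Relative signals of different probes were not read as higher or lower RNA levels, because probes differ in their response. Fold changes are the arrays labelled S1pr2-/- minus the wild-type arrays. The targeted gene went against the label: the S1pr2 probe read -0.13 and -0.16 for the wild-type replicates but 2.67 and 2.54 for those labelled S1pr2-/- (6.72-fold higher, adjusted p = 0.338 from limma), so every direction given here follows the labels. Whether this probe lies in the disrupted part of the gene was not tested. All 4 arrays lay on 1 slide; with so few arrays, precision is limited. The labels call the cells alveolar macrophages while the RNA was taken from all lavage cells. Of 10 alveolar macrophage markers, 10 were well above background on all arrays, and so were 9 of 9 T cell markers.

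Of the 15 CSF probes, 14 were well above background on all 4 arrays and were among the 27161 probes tested, and the Csf3 probe was below that limit on each. By the fold and p of the study's methods (above 1.5-fold with an unadjusted p under 0.05, here from limma), 4 of the 14 were lower on the arrays labelled S1pr2-/-, namely the 3 probes of Csf1 and the probe of Il34, where 1.62% of all probes tested were lower. None of the 14 was higher by this rule (0 probes), against 0.486% of all probes. The 3 Csf1 probes read the same gene, so the lower calls are not 4 separate members. After Benjamini-Hochberg adjustment over all probes, limma called 0 of the 14 and 0% of all probes in either direction. At an unadjusted p under 0.05 alone, 5 of the 14 were lower, against 5.59% of all probes. For 6 of the 14 probes (21.7% of all probes) the values labelled S1pr2-/- were both lower than either wild-type value, and for 1 (20.0% of all probes) both were higher. The median log2 fold change was -0.08 over the 14 probes and -0.003 over all probes tested. Separate cultures or animals are not named for the arrays of a genotype beyond independent RNA samples, so that p-values measure the spread between these samples.

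**Figure D1:**
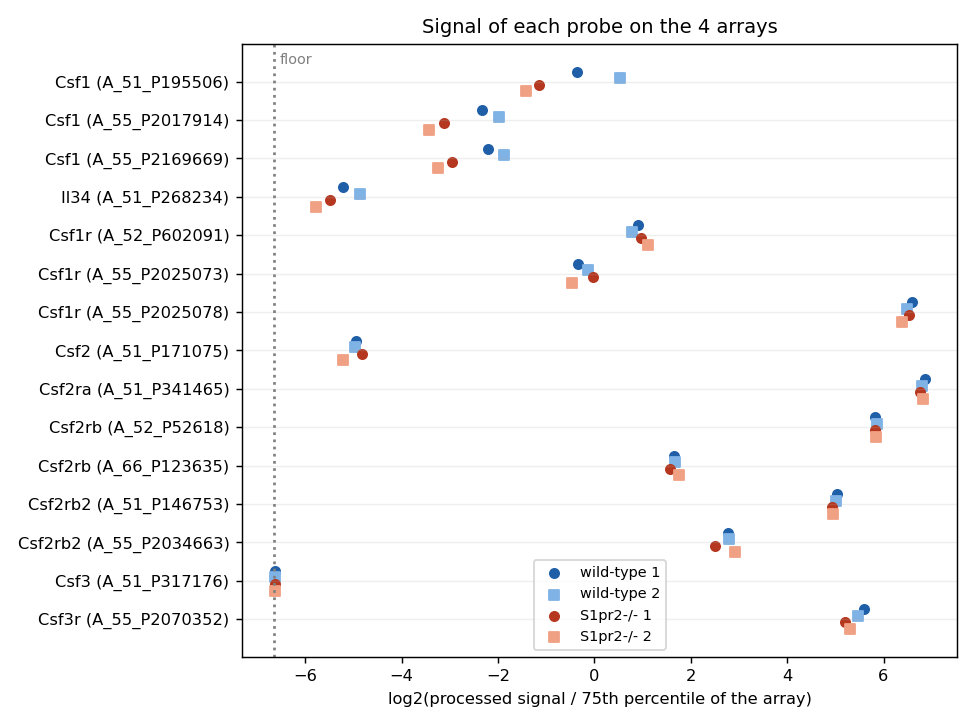
Relative signal (x axis, log2 of the processed signal over the 75th percentile of the array) of each of the 15 probes, with 1 point per array. The arrays labelled S1pr2-/- lie to the left of both wild-type arrays for the 3 Csf1 probes and Il34, and Csf3 lies at the floor (dotted line) on all 4 arrays.

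Csf1, which encodes the main growth factor of the macrophage lineage, was lower on the arrays labelled S1pr2-/- on each of its 3 probes. The brightest probe (A_51_P195506, accession NM_007778) had relative signals of -0.37 and 0.54 for the wild-type replicates and -1.15 and -1.42 for those labelled S1pr2-/-. The groups did not overlap, and wild-type replicate 2 stood 1.88-fold above wild-type replicate 1. The log2 fold change was -1.37 (standard error 0.373, 95% interval -2.50 to -0.24, unadjusted p = 0.0302 and adjusted p = 0.513 from limma), a 2.58-fold lower signal. In lavage cells, a lower level in each cell and fewer cells that express a gene cannot be told apart. Csf1 is among the genes that the study lists from these same arrays, so its direction here is no independent evidence.

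The 2 other Csf1 probes share the accession NM_001113530 and gave smaller differences with less spread. Probe A_55_P2017914 had relative signals of -2.34 and -1.99 for the wild-type replicates and -3.12 and -3.43 for those labelled S1pr2-/-. Its log2 fold change was -1.11 (standard error 0.189, unadjusted p = 0.00764 and adjusted p = 0.508 from limma). Probe A_55_P2169669 had -2.21 and -1.88 against -2.95 and -3.25, and the difference in log2 was -1.05 (standard error 0.183, unadjusted p = 0.00825 and adjusted p = 0.508 from limma). The wild-type arrays differed by 1.27-fold and 1.26-fold on these probes. Without wild-type replicate 2, the log2 fold changes of the 3 probes came to -0.92, -0.94 and -0.89, so that they lay closer together, between 1.85-fold and 1.92-fold lower. With each array left out in turn, the brightest probe ranged from -1.82 to -0.92 and lost the fold-and-p rule without either array labelled S1pr2-/-, while the 2 other probes passed it each time.

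The brightest Csf1 probe was printed in 10 spots on every array, which shows the error within an array. The spots ranged from 1831 to 2067 intensity units on wild-type replicate 1 and from 3405 to 3778 on wild-type replicate 2. On the arrays labelled S1pr2-/- they ranged from 1202 to 1352 and from 922 to 1020. No spot of one array fell within the range of another, before any scaling. The coefficient of variation over the spots was between 2.84% and 3.99%, so the 1.88-fold gap between the wild-type arrays was far larger than the error between spots.

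**Figure D2:**
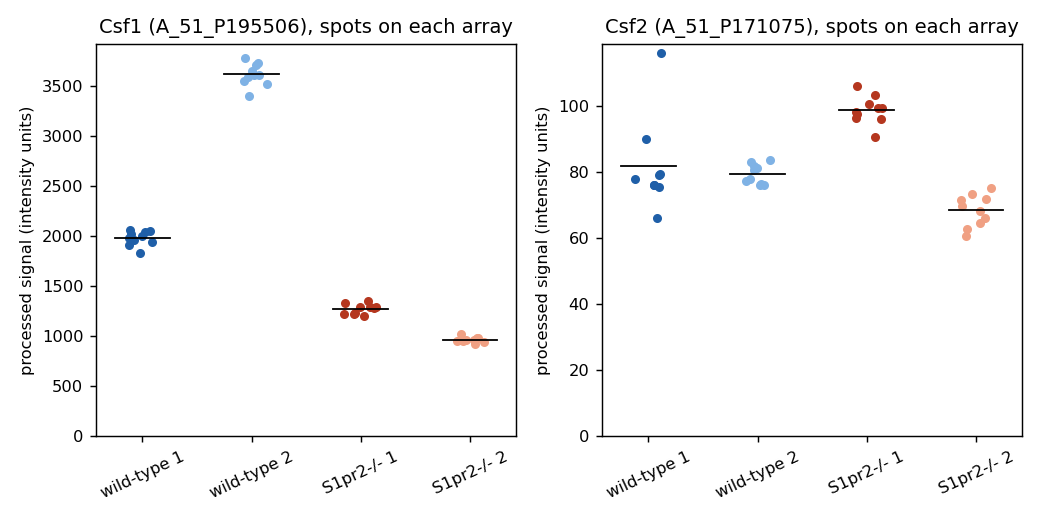
Processed signal in intensity units (y axis, starting at 0) of each spot of the probes printed 10 times per array, for Csf1 (left) and Csf2 (right), with the mean of each array as a line. The Csf1 spots form 4 separate bands and are lowest on the arrays labelled S1pr2-/-, whereas the Csf2 bands of the genotypes overlap. One Csf2 spot of wild-type replicate 1 carried an outlier flag and is not drawn.

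Il34, whose product shares the CSF-1 receptor, had a dim signal of between 46.8 and 85.9 intensity units. Its relative signals were -5.21 and -4.86 for the wild-type replicates and -5.50 and -5.78 for those labelled S1pr2-/-. The groups did not overlap, and the log2 fold change was -0.61 (standard error 0.184, 95% interval -1.17 to -0.05, unadjusted p = 0.0397 and adjusted p = 0.517 from limma), or 1.53-fold lower. It stood just past the 1.5-fold threshold and did not hold there: the log2 fold change was -0.44 without wild-type replicate 2, -0.47 without S1pr2-/- replicate 2 and -0.21 when the percentile was taken over detected probes.

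Csf2, which encodes GM-CSF, was also dim, and its groups overlapped. Its relative signals, from a probe with 10 spots, were -4.96 and -4.97 for the wild-type replicates and -4.83 and -5.23 for those labelled S1pr2-/-. The log2 fold change was -0.07 (95% interval -0.57 to 0.44, adjusted p = 0.903 from limma). The arrays labelled S1pr2-/- lay on either side of the wild-type arrays, and without S1pr2-/- replicate 2 the log2 fold change turned to 0.13. Csf3, which encodes G-CSF, had between 4.12 and 20.0 intensity units and stayed in the background on every array, so it was not tested and has no fold.

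**Figure D3:**
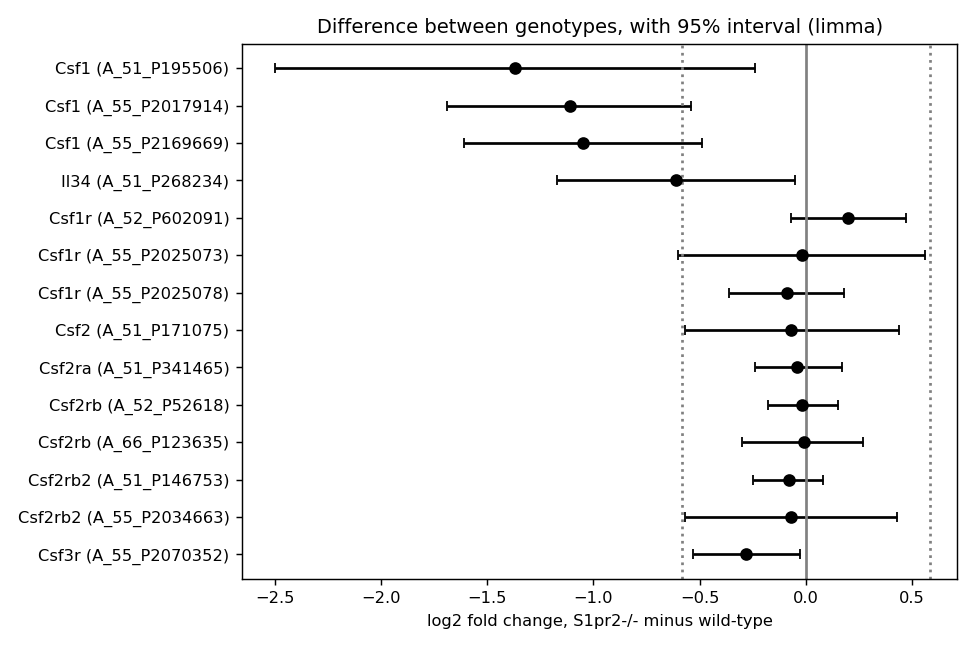
Log2 fold change (x axis, S1pr2-/- minus wild-type by the labels) of the 14 tested probes with 95% intervals from limma, and dotted lines at 1.5-fold. The intervals of the Csf1 probes lie below 0, with estimates from -1.37 to -1.05, and those of the GM-CSF receptor probes include 0.

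Among the receptors, the 9 tested probes held no call by the fold-and-p rule (0 probes) and no adjusted call. By this rule 1.62% of all probes were lower and 0.486% higher, so 0 calls among 9 probes lie near these shares. No probe of the whole array passed adjustment. Csf1r, the receptor of CSF-1 and IL-34, had 3 probes of the same accession (NM_001037859) that differed in sign. Its brightest probe had relative signals of 6.60 and 6.49 for the wild-type replicates and 6.53 and 6.38 for those labelled S1pr2-/-. These overlapped, with a log2 fold change of -0.09 (95% interval -0.36 to 0.18, adjusted p = 0.745 from limma). The probe A_52_P602091 had 0.90 and 0.78 against 0.97 and 1.11, higher than either wild-type value, with a difference of 0.20 in log2 (95% interval -0.07 to 0.47, adjusted p = 0.562 from limma). On the last probe, A_55_P2025073, the values overlapped, with a log2 fold change of -0.02 (95% interval -0.60 to 0.56).

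The GM-CSF receptor chains, Csf2ra and Csf2rb, were near the same relative signal on all arrays. Csf2ra, the alpha chain, had relative signals of 6.86 and 6.79 for the wild-type replicates and 6.75 and 6.83 for those labelled S1pr2-/-, which overlapped. Its log2 fold change was -0.04 (95% interval -0.24 to 0.17, adjusted p = 0.869 from limma). The brighter Csf2rb probe, for the common beta chain, had 5.82 and 5.86 against 5.82 and 5.84, with a log2 fold change of -0.02 (95% interval -0.18 to 0.15), and the dimmer probe had -0.01 (95% interval -0.30 to 0.27). Csf2rb2 had 5.04 and 5.01 against 4.94 and 4.95 on its brighter probe, lower on both arrays labelled S1pr2-/- by a log2 fold change of -0.08 (95% interval -0.25 to 0.08, adjusted p = 0.651 from limma). Its dimmer probe overlapped, at -0.07 (95% interval -0.57 to 0.43). Over these 5 probes of Csf2ra, Csf2rb and Csf2rb2 the 95% intervals reached from -0.57 to 0.43, both bounds from the dimmer Csf2rb2 probe. The tightest, for Csf2rb, held within 0.18 of no difference. Csf2rb and Csf2rb2 are close relatives in sequence, and whether a probe of one also reads the other was not tested.

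Csf3r, the G-CSF receptor carried by neutrophils, was slightly lower. Its relative signals were 5.6 and 5.47 for the wild-type replicates and 5.2 and 5.30 for those labelled S1pr2-/-, with no overlap. The log2 fold change was -0.28 (standard error 0.0835, 95% interval -0.53 to -0.03, unadjusted p = 0.0386 and adjusted p = 0.517 from limma), or 1.21-fold, which stays under the 1.5-fold threshold. Leaving out single arrays gave values from -0.35 to -0.21.

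**Figure D4:**
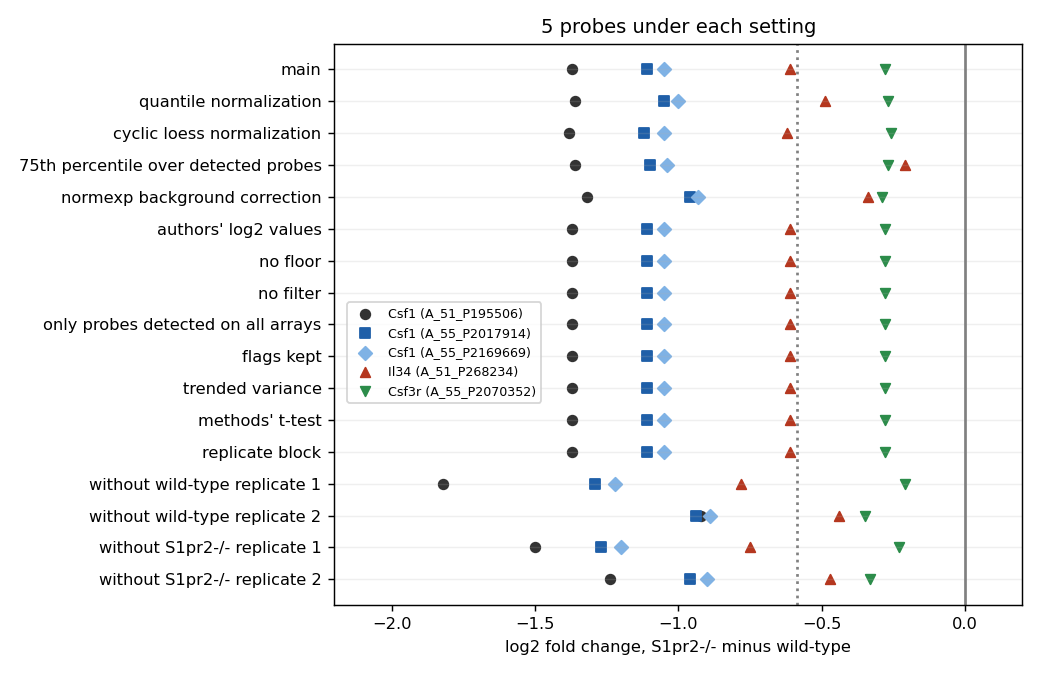
Log2 fold change (x axis) of the 3 Csf1 probes, Il34 and Csf3r under each processing setting and with each array left out (rows), with 0 as a solid and 1.5-fold as a dotted line. All points lie below 0, the Csf1 probes between -1.82 and -0.89, and Il34 crosses the 1.5-fold line under several settings.

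Markers of some other cell types moved in the same direction as these ligands. The fold-and-p counts below stand beside the shares of all probes tested, 1.62% lower and 0.486% higher, and the counts without overlap beside 21.7% below and 20.0% above. Of the 4 markers listed for type 2 innate lymphoid cells, all 4 detected on every array, 1 was lower by the rule (Gata3, -0.81) and 3 lay below the wild-type values without overlap, with a median log2 fold change of -0.66. Their summed relative level was 2.68 and 5.29 for the wild-type replicates against 1.93 and 1.47 for those labelled S1pr2-/-. These sums rest in large part on Il1rl1, which had 0.48 and 1.94 against -0.23 and -0.71. Il1rl1 did not pass the rule (-1.68, unadjusted p = 0.0612 from limma). Whether these markers came from type 2 innate lymphoid cells was not tested. Of the T cell list (9 of 9 detected), 2 genes were lower (Lck at -0.77 and Cd28 at -0.87) and 5 lay below without overlap, with a median of -0.40 and sums of 20.2 and 21.7 against 18.5 and 13.3. Of the eosinophil list (4 of 6 detected on all arrays), 4 of the 5 tested genes were lower (Prg2, Ccr3, Il5ra and Epx), with a median of -4.47. Epx entered the test only through the wild-type arrays, and read -6.64 (the floor) and -6.5 for those labelled S1pr2-/-. Its lower call thus follows in part from the filter, and its fold depends on the floor. The sums of this list, 40.3 and 45.5 against 33.3 and 36.6, rest mostly on the fifth gene, Siglecf, which alveolar macrophages also express. Siglecf had 5.26 and 5.28 for the wild-type replicates and 5.05 and 5.19 for those labelled S1pr2-/-, a log2 fold change of -0.15. Wild-type replicate 2 had the highest sum of these 3 lists, and also the highest values of Csf1 and Il34. This was not particular to the 3 lists. The same array had the highest sum of the alveolar macrophage, neutrophil, NK cell, dendritic cell, and mast cell and basophil lists. It did not for monocyte-derived macrophages, B cells, epithelial cells, fibroblasts, endothelial or erythroid cells.

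The neutrophil and dendritic cell lists held log2 fold changes of both signs. Of the neutrophil list (10 of 12 detected, with Ngp at the floor on all arrays and no named probe for Ly6g), 2 genes were lower, Retnlg at -4.81 and Cxcr2 at -0.59, while the median was -0.09. Without overlap, 4 genes lay below, these 2 with S100a9 (-1.46) and Mmp8 (-0.32), and 1 lay above (Elane). Ltf (0.36), S100a8 (0.25) and Elane (0.15) had log2 fold changes of the other sign, none past the rule. The sums of 43.1 and 58.1 against 39.0 and 30.0 rest in part on Retnlg, which had 2.65 and 4.33 for the wild-type replicates and -1.79 and -0.85 for those labelled S1pr2-/-. They also rest in part on S100a9, which had 3.5 and 3.74 against 3.15 and 1.16. Of the dendritic cell list (6 of 6 detected), 0 genes were lower or higher by the rule and the median was -0.04. Its sums of 10.9 and 13.6 against 9.65 and 9.42 rest mostly on Ccr7 (-0.47), and Cd209a (0.49), Flt3 (0.28) and Clec9a (0.13) had the other sign. Of the 5 mast cell and basophil markers, Mcpt8, Cpa3, Fcer1a and Ms4a2 were at the floor on all arrays, and the 1 tested, Mcpt4, was lower (-0.59, unadjusted p = 0.0311 from limma). Mcpt4 had -6.18 and -5.81 for the wild-type replicates and -6.64 (the floor) and -6.52 for those labelled S1pr2-/-. Its fold thus depends on the floor.

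The relative signals of the macrophage marker lists did not fall with Csf1. Each array was scaled to its own percentile, and by the paper most lavage cells of bleomycin-administered mice were macrophages. Relative signals therefore cannot show whether the number of macrophages differed, which was not tested here. The alveolar macrophage list (10 of 10 detected) had 0 genes lower or higher and a median of -0.04. The list for monocyte-derived macrophages (9 of 10 detected, with no named probe for Ly6c2) also had 0 calls, but its median was 0.54. Of its 9 genes with a probe, 5 (C1qa, C1qb, C1qc, Cx3cr1 and Cd14) lay above both wild-type values without overlap. Its sums overlapped, at 186 and 106 against 207 and 145, with Apoe at 6.16 and 3.74 for the wild-type replicates. Of the fibroblast list (5 of 6 detected, with Lum at the floor on all arrays), Dcn was higher (1.41) and 4 of the 5 tested genes lay above without overlap, with a median of 0.76. The lists for B cells (median -0.72), NK cells (-0.03), epithelial (-0.33), endothelial (0.03) and erythroid cells (0.49) held 0 calls, and 5 of the 9 epithelial genes lay below without overlap. The part of these cells in the differences of Csf1, Il34 and Csf3r was not tested.

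Downstream of the receptors, 28 genes were listed for CSF receptor signalling, read by the brightest probe of each, and 28 were tested. By the fold-and-p rule 0 were lower and 0 higher, which lies near the shares of all probes (1.62% and 0.486%). Without overlap, 10 lay below the wild-type values and 3 above (21.7% and 20.0% of all probes). The median log2 fold change was -0.02, with a range from -0.39 to 0.26. Jak2, the kinase bound to the common beta chain, had 2.29 and 2.62 for the wild-type replicates and 2.19 and 1.95 for those labelled S1pr2-/-. Its log2 fold change of -0.39 (unadjusted p = 0.0954, adjusted p = 0.558 from limma) was the lowest of the list. Stat5a, at 0.05, and Stat5b, at -0.14, did not pass the rule either.

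Of 10 genes listed as STAT5-induced or feedback genes, 2 were lower and 0 higher by the same rule (1.62% and 0.486% of all probes), with a median of -0.27. The 2 were Socs1 (-1.74) and Cish (-1.05), inhibitors of cytokine signalling that many other cytokines also induce. Neither passed after adjustment (adjusted p = 0.508 from limma for each). Socs1 and Cish are among the genes that the study lists from these same arrays, as are Ccr3, Il1rl1, Il5ra and Ccl4. Their direction here is no independent evidence. Without overlap, 6 of the 10 genes lay below the wild-type values and 2 above (21.7% and 20.0% of all probes).

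Of 21 myeloid transcription factors, 2 were lower and 0 higher (1.62% and 0.486% of all probes), with a median of -0.06. These were Cebpe, a factor of granulocyte maturation, with a log2 fold change of -4.37, and the immediate early gene Egr1, with -0.75. Spi1, which encodes PU.1, the factor behind Csf1r expression in macrophages, had 0.18 (adjusted p = 0.687 from limma), and its values overlapped. Over the list, 8 genes lay below the wild-type values without overlap and 4 above (21.7% and 20.0% of all probes).

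Of 13 related haematopoietic cytokines and receptors, 12 were tested, 1 was lower and 1 was higher (1.62% and 0.486% of all probes), with a median of 0.03. Il5ra, whose product pairs with the common beta chain, had -2.0 and -0.56 for the wild-type replicates and -5.17 and -4.86 for those labelled S1pr2-/-, 13.3-fold lower (adjusted p = 0.508 from limma). It also belongs to the eosinophil list above. The other alpha chain that pairs with it, Il3ra, had a log2 fold change of 0.01 with overlapping values. Among the ligands, Il5 had -0.68 (unadjusted p = 0.0731) and Il3, which neighbours Csf2 in the genome, had 0.05 at a very dim signal. Epor, the erythropoietin receptor, had 0.67 and 0.62 against 1.25 and 1.21, a log2 fold change of 0.59 (unadjusted p = 0.00148, adjusted p = 0.508 from limma). Over the list, 3 genes lay below the wild-type values without overlap and 3 above (21.7% and 20.0% of all probes). So of the chains that share Csf2rb, the alpha chain of IL-5 was lower while Csf2ra and Il3ra overlapped between genotypes.

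**Figure D5:**
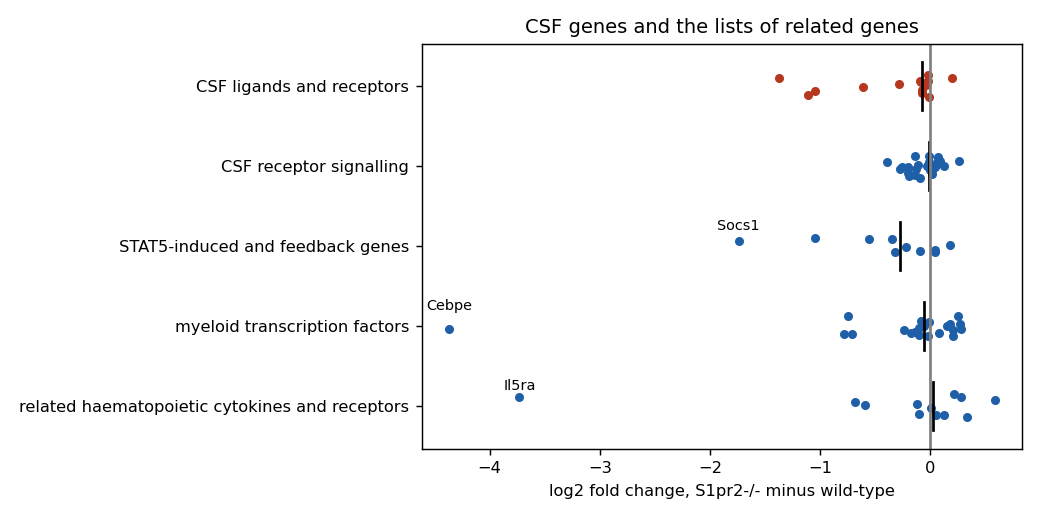
Log2 fold change (x axis) of the 14 tested CSF probes and of the genes of 4 related lists (1 point per probe or gene, spread vertically only for legibility), with the median of each as a black line. Most points lie near 0, and Socs1, Cebpe and Il5ra stand apart on the lower side.

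By the shape of their signal over the 4 arrays, the genes nearest to the brightest Csf1 probe were C1s2, Ccl4 and C1s1, out of 20141 tested probes with a gene symbol. Their root mean square distances, after centring each probe on its mean, were 0.0451, 0.056 and 0.0725 on the log2 scale. C1s2 and C1s1 were dim. C1s2 had -4.7 and -3.89 for the wild-type replicates and -5.58 and -5.77 for those labelled S1pr2-/-, and C1s1 had -5.13 and -4.16 against -5.95 and -6.03. Ccl4, which encodes a chemokine of macrophages, had -0.33 and 0.60 for the wild-type replicates and -1.18 and -1.5 for those labelled S1pr2-/-. With 4 arrays this is a description of shape, and it says nothing of a shared role.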

How the data were processed

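Independent RNA samples of lavage cells (2 per genotype) were hybridized as Cy3-labeled cRNA. For every array the authors deposited the scanner table, where Feature Extraction (11.0.1.1 per the file headers, 10.7.3.1 in the submitters' processing notes) had subtracted the background from the intensity of each spot. They also deposited a table of log2 values normalized to the wild-type arrays, in which 99.7% of 39359 probes lay within 0.01 of the scaled scanner output once each probe was centred on its wild-type mean and a constant per array was taken off; it served as an alternative. No probe sequences were used here. Accessions were matched to symbols in the RefSeq table of GRCm38.p6, which named 69.6% of 39429 probes. The array design uses mm9, so probe coordinates are not given.

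Flagged spots (between 115 and 273 per array) were left out and the spots of a probe averaged; 0 spots were saturated. Of 39359 probes measured on all arrays, the 27161 that both arrays of either genotype (or of each) read well above background were tested with limma 3.58.1 in R 4.3.3 (lmFit, eBayes, Benjamini-Hochberg over all of them). The floor was set after the scaling, whereas the methods list it before, and the Lowess step they also list was not repeated. Whether cells of several mice were pooled per array was not found. With 2 arrays per genotype an exact two-sided permutation test cannot give a p below 0.333. The genes, lists and rules were chosen with earlier results of these data known; every CSF probe is named, and of each of the 4 lists of related genes those past the fold-and-p rule (at most 5) with Jak2, Stat5a, Stat5b, Spi1, Il3, Il3ra, Il5 and Il5ra. Genes of the marker lists were named after their values were seen. Alternatives were quantile, cyclic loess and detected-probe scaling, normexp (offset 50, on the median signal, as the mean was not among the columns), the authors' log2 table, no floor, 2 other filters, keeping flagged spots, the methods' t-test, an intensity trend in the variance, a replicate block, other fold thresholds and leaving out each array in turn (the lone array being assumed to vary like the others).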

Additional observations from a re-analysis of the deposited data

How the results depend on the processing

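Of 224 values recomputed for single CSF probes, 11 changed sign, on 6 probes whose difference was near 0. Under quantile normalization the log2 fold change was 0.06 for Csf2, 0.02 for Csf2ra and 0.03 for the brighter Csf2rb probe, and 0.01 for the latter under cyclic loess. With each array left out, the ranges were -0.27 to 0.13 for Csf2, -0.08 to 0.01 for Csf2ra, -0.03 to 0 and -0.11 to 0.09 for the Csf2rb probes, -0.27 to 0.13 for the dimmer Csf2rb2 probe and -0.23 to 0.19 for the Csf1r probe A_55_P2025073. The 3 Csf1 probes stayed between -1.38 and -0.93 over 12 alternatives with all arrays, Il34 between -0.62 and -0.21 and Csf3r between -0.29 and -0.26. The adjusted p of the Csf1 probes lay between 0.375 and 0.695 over all alternatives.

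The 4 CSF probes lower by the fold-and-p rule fell to 2 with the percentile over detected probes, no filter, the methods' t-test and the replicate block, and were 2 to 4 with each array left out; the 2 that passed each time were the Csf1 probes of NM_001113530. Over all probes the 440 lower and 132 higher probes became 353 higher with quantile and 315 with cyclic loess normalization, 204 lower and 63 higher with the percentile over detected probes, 73 higher with normexp, 237 higher in the authors' log2 values and 238 without a floor. They were 244 lower with no filter, 152 and 58 with the methods' t-test, 172 and 29 at 2-fold and 982 and 311 by the fold alone. With each array left out they were 340 to 729 lower (729 without wild-type replicate 2) and 151 to 351 higher (351 without S1pr2-/- replicate 1). The share of lower probes among these calls was 76.9%, against 55.0% under quantile and 63.7% under cyclic loess normalization, 55.3% without S1pr2-/- replicate 1 and 56.4% without S1pr2-/- replicate 2. After adjustment limma called 0 probes in either direction, except 1 lower and 1 higher with normexp, and the methods' t-test called 0; the cause of these shifts was not tested.

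The labels name nothing that same-numbered arrays share beyond the number, and whether they shared a batch was not tested. Over all tested probes, the difference between the wild-type replicates correlated at 0.187 with that between the replicates labelled S1pr2-/-. With the replicate block 444 probes were lower and 166 higher by the fold-and-p rule. The dim signals of Csf2, Il34 and Csf3 limit what can be read from them.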

Other observations

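The probes of Csf1 did not keep one distance from each other over the arrays. The log2 ratio of the brightest probe to A_55_P2017914, which has no meaning as an RNA level and was read only for its change between arrays, was 1.97 on wild-type replicate 1, 1.97 and 2.01 on the arrays labelled S1pr2-/-, and 2.53 on wild-type replicate 2. Against A_55_P2169669 the gaps were 1.85, 1.80 and 1.83 on those arrays and 2.42 on wild-type replicate 2. So the gap on wild-type replicate 2 was 0.52 and 0.58 above the highest of the other arrays, while those 3 arrays lay within 0.04 and 0.05 of each other. The probes carry accessions of different Csf1 transcripts. The cause of the wider gap on this array was not tested, and these values were chosen after they were seen.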
